A study of Homo sapiens with 6 samples.

Results

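The genes described here are 10 feedback genes of the ERK pathway: the phosphatases DUSP4, DUSP5 and DUSP6, the inhibitors SPRY2, SPRY4, SPRED1 and SPRED2, the transcription factors ETV4 and ETV5, and PHLDA1. They were chosen by name, with earlier results of these data known, and all 10 were found among the 30178 genes of the expression table. Each had a mean level of at least 1 FPKM (reads scaled to gene length and library size), so all 10 entered the test among 11481 genes. RNA sequencing covered 6 libraries of CAL27, an established oral carcinoma line. The labels call it adenosquamous. The cells carried an empty vector, a GFP fusion of wild-type MB21D2 expressed constitutively, or the Q311E form of that fusion, and each line gave a library A and a library B. All 3 lines were stable and grew in DMEM with serum and the drug G418. No label says whether a line is 1 clone or which promoter drives the fusion. Nor is it said that A and B came from different cultures, and if they did not, the p-values reflect technical spread.

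ERK is the last kinase of a chain that runs from growth factor receptors through Ras, RAF and MEK, and it drives proliferation in squamous carcinoma cells. Active ERK switches on genes whose products restrain the same chain, and their transcripts are widely read as a measure of its output. DUSP phosphatases remove phosphate from ERK itself, Sprouty and Spred proteins act above, around Ras and RAF, and ETV4 and ETV5 are DNA-binding factors of the PEA3 group of the ETS family. No phosphorylated protein was measured here, so the values below are transcript levels only.

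Over the 3 comparisons, 4 of the 10 genes were called at least once and 6 in none. A call is an adjusted p under 0.05 (Benjamini-Hochberg, two-sided) in a limma fit of log2(FPKM + 1) over all tested genes, and fold changes are on that log2 scale with their SE. DUSP5 rose in both MB21D2 lines and stood highest in the Q311E line. DUSP6 rose in the wild-type line, SPRY2 rose in the Q311E line, and PHLDA1 was higher in the Q311E line than in the wild-type line. In wild type against vector 2 of 10 rose and 0 fell, where 3.54% of all tested genes were called higher and 8.76% lower. In Q311E against vector 2 rose and 0 fell, beside 8.67% higher and 9.28% lower among all genes. In Q311E against wild type 3 rose and 0 fell, beside 17.5% higher and 10.1% lower. Both comparisons with vector use the same 2 vector libraries.

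The libraries held 20645410 to 24147306 reads, as recovered from the steps in the FPKM values. MB21D2 followed the labels, at 7.15 to 8.31 FPKM in the vector libraries, 104 and 106 in wild type, and 32.8 (A) and 21.2 (B) in Q311E, so the form of MB21D2 and its RNA level cannot be told apart. The 2 Q311E libraries differed more than the others (SD of the log2 difference over all genes 0.436, against 0.192 for vector and 0.145 for wild type), and the fit shares 1 spread among the groups. Counts of called genes turned on single libraries, and so did the call of MB21D2 itself. MB21D2 lost its call in both comparisons with vector when any 1 vector or wild-type library was left out. Its fold changes then were 3.51 to 3.70 for wild type and 1.56 to 1.75 for Q311E. For wild type against vector the count went from 1412 to between 7 and 11 without any 1 vector or wild-type library. For Q311E against vector it went from 2061 to 3 without either vector library and to 269 or 270 without a wild-type library. For Q311E against wild type it went from 3162 to 969 or 981 without a vector library and to 0 without either wild-type library (limma; 2878 and 2794 genes then had an unadjusted p under 0.05). Leaving out a Q311E library raised the counts to between 4417 and 6961. With each library scaled to the same median, higher calls became 625 of 1308 in wild type against vector (406 of 1412 as deposited) and 1487 of 3713 in Q311E against wild type (2004 of 3162). Epithelial markers were present, with 6 of 7 at a mean of 1 FPKM or more and KRT19 below it. All 5 squamous markers reached that mean, but KRT14 stood at 697 and 762 FPKM in the vector line and at 0.771 to 2.35 in the MB21D2 lines. The summed epithelial markers were 702 and 703 FPKM in vector, 1052 and 1072 in wild type, and 1088 (A) and 714 (B) in Q311E. The squamous sums were 1723 to 1807, 738 to 754 and 848 to 923. The part of these differences in the results below was not tested. Of other cell types, 2 of 7 fibroblast, 1 of 4 matched leukocyte (CD14) and 1 of 4 endothelial markers (CDH5) reached a mean of 1 FPKM, with PTPRC, DCN and KDR near 0. CD14 was 4.93 FPKM in Q311E A and 18.8 in Q311E B, against 1.78 to 3.17 elsewhere. The summed leukocyte markers ran from 1.83 to 3.24 FPKM in vector, 2.40 to 2.58 in wild type and 4.93 to 18.9 in Q311E. The endothelial sums were 20.1 to 21.5, 15.5 to 15.9 and 22.7 to 35.6 FPKM, and the fibroblast sums 2.96 to 3.59, 2.49 to 2.77 and 3.08 to 3.84. Their part in the results was not tested either.

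RefSeq start sites (GRCh38.p14) were matched for 6 of the 10 genes. They have 9 listed starts. Of the windows of 250 bases before these starts, 5 run into exons of the same gene in GENCODE 29 and are not shown, those of DUSP6 and PHLDA1 among them. SPRY2, which rose in the Q311E line, has 3 starts, and the window before the outermost is shown because it lies clear of the gene's exons and holds the ETS core CCGGAA. Capitals mark that core, the kind of site that PEA3 factors bind.
SPRY2, chr13:80341127-80341376, minus strand: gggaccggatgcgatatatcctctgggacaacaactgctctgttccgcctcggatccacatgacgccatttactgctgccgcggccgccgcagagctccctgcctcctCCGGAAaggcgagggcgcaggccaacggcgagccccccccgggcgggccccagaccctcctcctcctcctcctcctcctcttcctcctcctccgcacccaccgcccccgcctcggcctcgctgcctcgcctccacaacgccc
The core was searched on both strands. It occurred once before the outermost SPRY2 start, 142 bases upstream, and once before the PHLDA1 start, 89 bases upstream and within an exon. It was not found in the DUSP6 window, nor before the other SPRY2 starts or those of SPRY4, SPRED1 and SPRED2. Among all 35116 promoter entries 14.5% held it in the same window. The AP-1 motif TGANTCA (6.57% of entries) and the CRE motif TGACGTCA (1.65%) were found before none of these 9 starts on either strand, so no matches overlapped. A match is a description of letters, not a measured site.

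**Figure D1:**
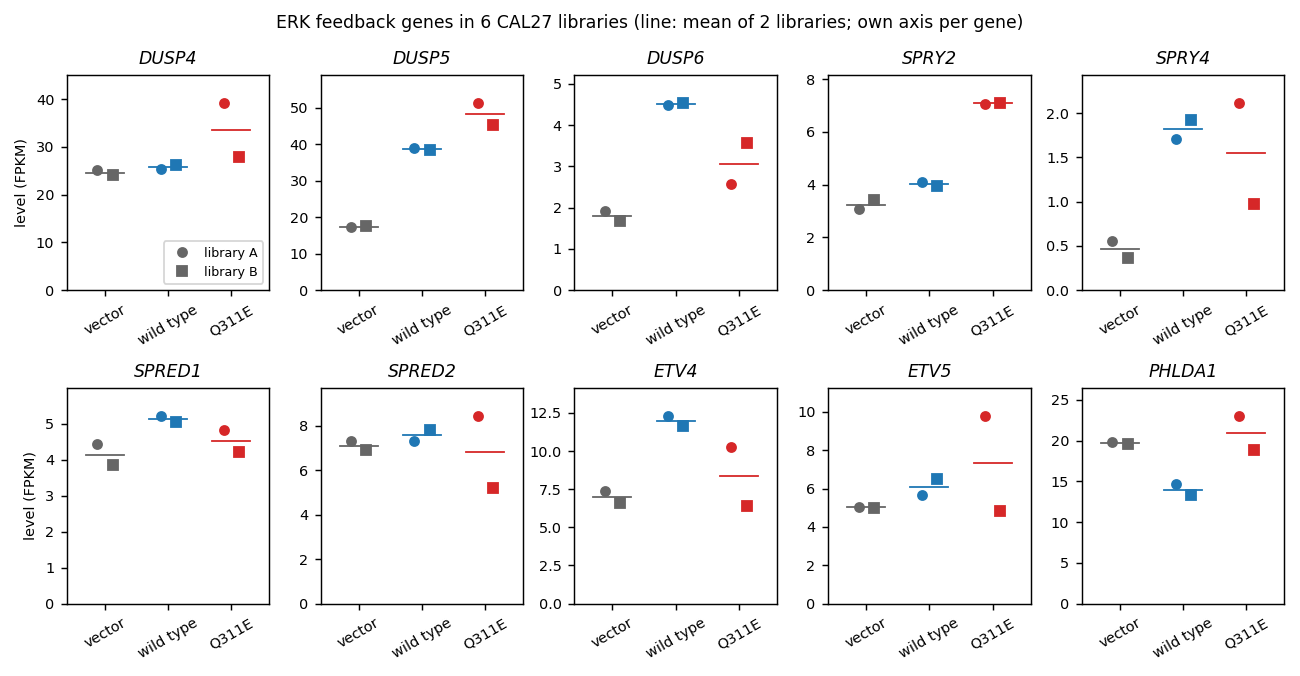
Level of each of the 10 ERK feedback genes (FPKM, from 0, each gene on its own axis) in the vector, wild-type and Q311E lines, with circles for library A, squares for library B and a line at the mean of the 2. DUSP4, DUSP5 and SPRY2 are highest in Q311E, and DUSP6, SPRED1 and ETV4 are highest in wild type. The Q311E libraries are far apart for ETV5, SPRY4 and SPRED2.

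DUSP5, a nuclear phosphatase that acts on ERK, had the largest change of the 10 on the log2(FPKM + 1) scale in both comparisons with the vector. Its levels were 17.2 and 17.6 FPKM in the vector libraries, 39.0 and 38.4 in wild type, and 51.4 (A) and 45.4 (B) in Q311E. In bulk RNA, more cells with the transcript and more of it per cell cannot be told apart. The order vector, wild type, Q311E held without overlap, on 922 to 2775 reads a library. The rise over the vector was 2.22-fold in mean FPKM for wild type (log2 fold change 1.11 ± 0.09, limma adjusted p = 0.00611) and 2.78-fold for Q311E (1.42 ± 0.09, limma adjusted p = 0.00349). The step from wild type to Q311E was smaller, 0.31 ± 0.09 (limma adjusted p = 0.0473). The rise in wild type lost its call without vector A (adjusted p = 0.0917), vector B (0.116) or either wild-type library (0.118 for A and 0.119 for B), with fold changes from 1.09 to 1.12. The rise in Q311E lost its call without vector A (0.0696) or vector B (0.0585) and kept it without either Q311E library. The step from wild type to Q311E passed in 5 of 16 alternatives, and with median scaling it was 0.19 (adjusted p = 0.108). Leaving out vector A, vector B and each wild-type library in turn, its adjusted p was 0.113, 0.113, 0.227 and 0.248.

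DUSP6, the cytoplasmic phosphatase widely used as a readout of ERK, was low throughout and highest in wild type. The antisense gene AC024909.2 shares 40.5% of its exon bases. Whether reads were counted by strand is not given, so reads of the 2 genes may not be separable. AC024909.2 was listed at 0.0831 to 0.205 FPKM. DUSP6 stood at 1.92 and 1.68 FPKM in vector, 4.50 and 4.54 in wild type, and 2.58 (A) and 3.56 (B) in Q311E. No 2 groups overlapped, and Q311E lay between the others. The values rested on 134 to 396 reads a library. DUSP6 rose 2.51-fold in wild type (0.98 ± 0.14, limma adjusted p = 0.0176). That call was lost without vector A (adjusted p = 0.112), vector B (0.163) or either wild-type library (0.164 for A and 0.174 for B), and without the filter on low values (0.0612). In Q311E the value was 0.53 ± 0.14 against vector (adjusted p = 0.0564) and -0.45 ± 0.14 against wild type (adjusted p = 0.0633), neither of which passed. Without Q311E A the values were 0.70 and -0.28 (adjusted p = 0.00304 and 0.0495), and without Q311E B 0.36 and -0.62 (0.0346 and 0.00602).

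DUSP4, a nuclear phosphatase with ERK and JNK among its substrates, was the most abundant of the 3 in the vector line and was not called. Its levels were 25.2 and 24.0 FPKM in vector, 25.4 and 26.3 in wild type, and 39.3 (A) and 27.8 (B) in Q311E. Vector and wild type lay close together. Both Q311E libraries were above them, with Q311E A further apart than Q311E B. The fold changes were 0.07 ± 0.16 for wild type and 0.41 ± 0.16 for Q311E against vector (limma adjusted p = 0.799 and 0.137). Without Q311E B the Q311E value was 0.65 against vector and 0.59 against wild type, and both passed (adjusted p = 0.00143 and 0.00202). In the vector line DUSP4 exceeded DUSP5 in each library, and in both MB21D2 lines DUSP5 exceeded DUSP4.

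SPRY2, a Sprouty protein that dampens signals from receptor tyrosine kinases, rose in Q311E. It was at 3.07 and 3.42 FPKM in vector, 4.11 and 3.94 in wild type, and 7.06 and 7.11 in Q311E. The groups did not overlap in any comparison, and the 2 Q311E libraries agreed more closely for SPRY2 than for any other of the 10 genes. The Q311E level was 2.18-fold the vector (0.93 ± 0.09, limma adjusted p = 0.00562) and 1.76-fold the wild type (0.69 ± 0.09, limma adjusted p = 0.00848). The wild-type value against vector was 0.24 ± 0.09 (limma adjusted p = 0.126). Against vector the call was lost without vector A (adjusted p = 0.0819) or vector B (0.0727), and against wild type when either wild-type library was left out (0.0973 for A and 0.111 for B), while the fold changes kept between 0.87 and 0.99 and between 0.66 and 0.71. Leaving out either Q311E library kept both calls.

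SPRY4, another Sprouty protein, had the lowest level of the 10 and the largest ratio of means, but was not called. Its mean was under 1 FPKM in the vector line, so it passed the filter on low values only through the MB21D2 lines, where it is higher, and its comparisons with vector rest on that. Without the filter the adjusted p was 0.171 for wild type and 0.188 for Q311E against vector. SPRY4 stood at 0.561 and 0.369 FPKM in vector, 1.71 and 1.93 in wild type, and 2.12 (A) and 0.979 (B) in Q311E. Every MB21D2 library lay above both vector libraries, and the wild-type values fell between the 2 Q311E values. The ratio of means was 3.91 for wild type and 3.33 for Q311E, on 50 to 296 reads a library. The log2(FPKM + 1) scale shrinks changes at such low levels, and the values on it were 0.95 ± 0.23 (limma adjusted p = 0.0569) and 0.77 ± 0.23 (0.0779). With a pseudocount of 0.1 the wild-type value was 1.78 (adjusted p = 0.0441), and limma-voom on the recovered reads gave 1.97 (adjusted p = 0.0468). Without Q311E A the Q311E value over vector was 0.44 (0.0388) and without Q311E B 1.09 (0.00294). The wild-type value passed without Q311E A (0.00203) or Q311E B (0.00197). Against wild type the Q311E value was -0.18 ± 0.23 (adjusted p = 0.574), -0.51 without Q311E A (0.0196) and 0.15 without Q311E B (0.408).

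SPRED1 and SPRED2, which bind Ras and bring the Ras inactivator neurofibromin to the membrane, passed the test in no comparison. SPRED1 was at 4.43 and 3.86 FPKM in vector, 5.22 and 5.05 in wild type, and 4.81 and 4.20 in Q311E. Its wild-type libraries were above all others, with a fold change over vector of 0.26 ± 0.10 (limma adjusted p = 0.163). SPRED2 was at 7.31 and 6.91 FPKM in vector, 7.33 and 7.83 in wild type, and 8.44 (A) and 5.18 (B) in Q311E. The 2 Q311E values of SPRED2 were its highest and its lowest. Its fold changes over vector were 0.08 ± 0.20 in wild type and -0.09 ± 0.20 in Q311E (limma adjusted p = 0.807 and 0.796). Without Q311E A the SPRED2 value in Q311E was -0.39 against vector and -0.47 against wild type (adjusted p = 0.0113 and 0.00442). Without Q311E B it was 0.22 and 0.14 (0.0747 and 0.206).

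ETV4 was higher in wild type than elsewhere without passing the test. It was at 7.36 and 6.60 FPKM in vector, 12.3 and 11.6 in wild type, and 10.3 (A) and 6.42 (B) in Q311E. Both wild-type libraries were above all 4 others, and Q311E B was the lowest of the 6. The fold change of wild type over vector was 0.70 ± 0.20 (limma adjusted p = 0.0800), which passed without Q311E A (0.00147) or Q311E B (0.00137), and that of Q311E was 0.20 ± 0.20 (0.521). ETV5 was at 5.06 and 4.99 FPKM in vector, 5.67 and 6.48 in wild type, and 9.79 (A) and 4.85 (B) in Q311E, so its highest and lowest values were both in Q311E. Its fold changes over vector were 0.23 ± 0.28 in wild type and 0.40 ± 0.28 in Q311E (limma adjusted p = 0.605 and 0.358). Without Q311E A, the Q311E value over vector was -0.10 for ETV4 and -0.04 for ETV5, and without Q311E B it was 0.50 and 0.84 (adjusted p = 0.00891 and 0.00233). Against wild type, ETV4 was at -0.50 ± 0.20 (adjusted p = 0.112), and at -0.80 without Q311E A (0.000955). ETV5 was at 0.17 ± 0.28 (adjusted p = 0.667), at -0.27 without Q311E A (0.0521) and at 0.61 without Q311E B (0.00584). Small stretches of ETV4 exons (1.89% of bases) and ETV5 exons (2.83%) are shared with DHX8 and DGKG.

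PHLDA1, a pleckstrin homology-like protein whose transcript is induced by growth factor signals, was the 1 gene of the 10 with a lower level in wild type than in vector. It was at 19.9 and 19.6 FPKM in vector, 14.7 and 13.3 in wild type, and 23.0 (A) and 18.9 (B) in Q311E. The wild-type libraries lay below all others, and the vector values fell between the 2 Q311E values. The fold change of wild type over vector was -0.47 ± 0.11 (limma adjusted p = 0.0565), which did not pass. With the replicate letter as a block, its adjusted p was 0.0463. Q311E was above wild type (0.54 ± 0.11, limma adjusted p = 0.0257). That call was lost without vector A (adjusted p = 0.0735), vector B (0.0735), wild type A (0.132) and wild type B (0.178), without the filter on low values (0.0689) and with TPM scaling (0.0635), with fold changes from 0.48 to 0.61 over these. Antisense genes share parts of PHLDA1 exons (6.85% of bases with AC011611.3, listed at 0 to 0.170 FPKM, and 9.65% with AC011611.4, not analysed here).

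**Figure D2:**
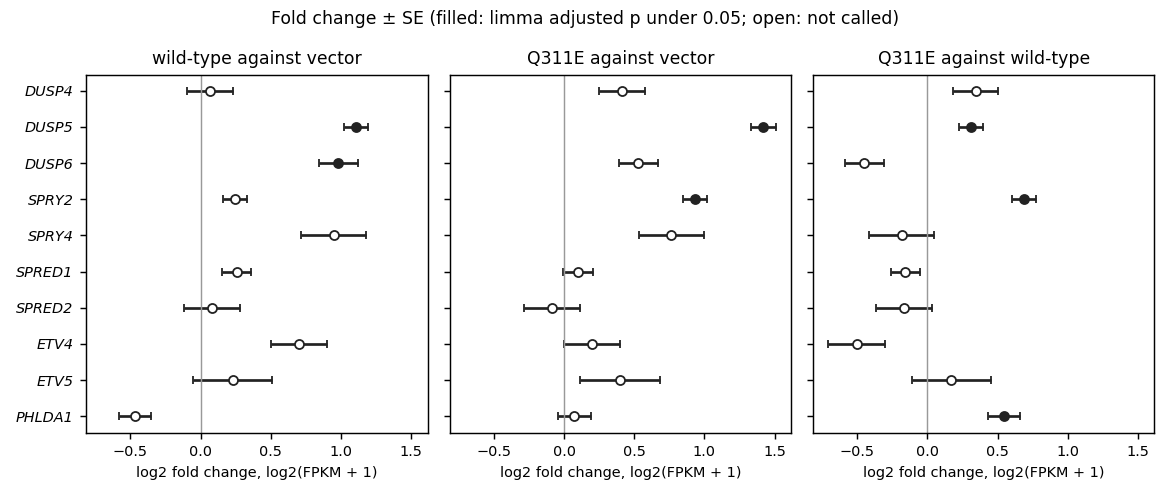
Log2 fold change on the log2(FPKM + 1) scale with its SE for each of the 10 ERK feedback genes in the 3 comparisons, with filled points for called genes. DUSP5 and DUSP6 are filled in wild type against vector, DUSP5 and SPRY2 in Q311E against vector, and DUSP5, SPRY2 and PHLDA1 in Q311E against wild type.

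Of the 10 genes, 9 had a positive value against the vector in each MB21D2 line. The median of the 10 was 0.25 in wild type and 0.41 in Q311E, where the median of all tested genes was -0.05 and 0.00. SPRY4 counts among the 9, although it passed the filter on low values only through the MB21D2 lines. The counts and medians of the 10 against vector include SPRY4. The Q311E summary turned on single libraries: without Q311E A 6 of 10 were positive with a median of 0.09, and without Q311E B 10 of 10 with a median of 0.58. Against wild type, 5 of 10 Q311E values were positive, with a median of 0.01 beside 0.05 for all genes. Without Q311E A that median was -0.25 with 4 of 10 positive, and without Q311E B 0.27 with 7 of 10, so 0.01 averages 2 libraries that differ in sign. Leaving out wild type A or B gave -0.03 and 0.06. In wild type against vector the 2 groups' libraries did not overlap for any of the 10 genes, with 9 above and PHLDA1 below, but 77.0% of all tested genes showed no overlap. In Q311E against vector 5 of 10 did not overlap, all higher, beside 60.1% of all genes, and in Q311E against wild type 7 of 10, beside 70.1%. With the spread taken from the 4 vector and wild-type libraries alone, 7 of 10 were called in wild type against vector, and 45.9% of all genes were called too. The 5 added there were SPRY2, SPRY4, SPRED1 and ETV4, which were higher, and PHLDA1, which was lower (adjusted p = 0.0452, 0.00204, 0.0447, 0.00139 and 0.00322). The same 5 were called when all groups were fitted without either Q311E library. With the spread from only the 2 groups compared, DUSP5 and SPRY2 stayed called in Q311E against vector, beside 2.28% of all genes. SPRY2 alone was called in Q311E against wild type, beside 8.47%, and DUSP5 and PHLDA1 were not (adjusted p = 0.114 and 0.0736).

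The 2 Q311E libraries were unlike in these genes. On the log2(FPKM + 1) scale, 8 of 10 were higher in Q311E A than in Q311E B, beside 54.3% of all tested genes. The median difference was 0.38 where all tested genes had 0.04. The largest differences were 0.88 for ETV5, 0.66 for SPRY4, 0.61 for SPRED2, 0.60 for ETV4 and 0.48 for DUSP4. DUSP6 went the other way by -0.35, and SPRY2 by -0.01. In the vector line the members' median difference was 0.07, with 8 of 10 higher in A, beside 53.9% of all tested genes. In the wild-type line it was 0.00, with 5 of 10, beside 55%. MB21D2 itself was 0.60 higher in Q311E A than in Q311E B. Whether its level has a part in the members' differences was not tested.

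**Figure D3:**
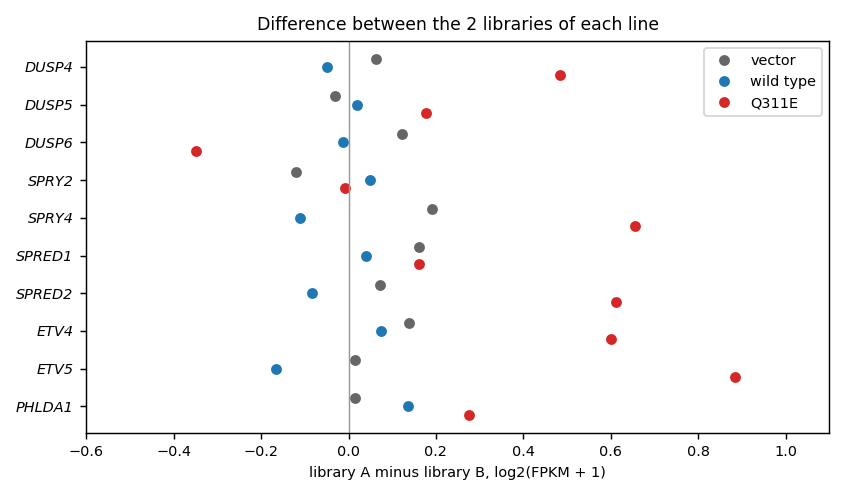
Difference between library A and library B of each line on the log2(FPKM + 1) scale for each of the 10 genes, with 1 colour per line. Vector and wild-type points lie between -0.17 and 0.19, and Q311E points reach from -0.35 for DUSP6 to 0.88 for ETV5.

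The members were set among their paralogues in FPKM, which is per length. The 10 MAP kinase phosphatases measured summed to 95.7 and 93.2 FPKM in the vector libraries, 134 and 131 in wild type, and 179 (A) and 198 (B) in Q311E. DUSP5 supplied 18.0% and 18.9% of that sum in vector, 28.8% to 29.4% in wild type and Q311E A, and 23.0% in Q311E B. DUSP6 supplied at most 3.48%. DUSP1, a phosphatase of stress kinases and ERK, was at 5.39 and 7.53 FPKM in vector, 21.0 and 17.9 in wild type, and 20.9 (A) and 50.7 (B) in Q311E. It rose in Q311E (2.19 ± 0.41, limma adjusted p = 0.0243) and had 1.47 ± 0.41 in wild type (0.0751). DUSP10, which acts on JNK and p38, rose in Q311E over both other lines (0.83 ± 0.15 over vector, limma adjusted p = 0.0243, and 0.92 ± 0.15 over wild type, 0.0156). DUSP7, a cytoplasmic ERK phosphatase like DUSP6, fell in Q311E (-0.57 ± 0.12 against vector, limma adjusted p = 0.0299, and -0.71 ± 0.12 against wild type, 0.0151). DUSP2, a nuclear phosphatase, rose in wild type (0.58 ± 0.09, limma adjusted p = 0.0221), and DUSP16 fell there (-0.49 ± 0.10, 0.0366). Against wild type, DUSP2 was lower in Q311E (-0.65 ± 0.09, limma adjusted p = 0.0109) and DUSP16 higher (0.39 ± 0.10, 0.0382). DUSP8 stayed between 1.05 and 2.34 FPKM. DUSP9 was at 1.49 to 2.64 FPKM in 5 libraries and at 21.3 in Q311E B alone.

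Of the Sprouty genes, SPRY2 held 49.2% to 61.2% of the family's summed FPKM in every library. The sum was 5.28 and 5.59 FPKM in vector, 8.25 and 8.01 in wild type, and 12.3 and 12.9 in Q311E. SPRY1 rose in Q311E over vector (0.84 ± 0.19, limma adjusted p = 0.0368), at 2.93 (A) and 4.67 (B) against 1.57 and 1.71 FPKM, and SPRY3 was at most 0.193 FPKM. The Spred sum ran from 9.73 to 13.5 FPKM, with SPRED3 at most 0.347. In the PEA3 group, ETV1 was under the filter on low values and not tested. It was at 0.246 and 0.166 FPKM in vector, 0.109 and 0.102 in wild type, and 1.30 (A) and 0.736 (B) in Q311E. ETV4 was above ETV5 in every library. PHLDA2, a paralogue of PHLDA1, rose in wild type over vector (0.43 ± 0.10, limma adjusted p = 0.0473) and was lower in Q311E than in wild type (-0.40 ± 0.10, 0.0367). PHLDA3 was at 18.6 and 20.0 FPKM in vector, 10.1 and 11.7 in wild type, and 10.6 (A) and 16.2 (B) in Q311E. It was not called (-0.77 ± 0.20 in wild type against vector, limma adjusted p = 0.0618). PHLDA1 held 12.8% to 23.3% of the 3 genes' sum. With TPM scaling DUSP7 against vector, DUSP16 in wild type and both PHLDA2 comparisons were not called (adjusted p = 0.0557, 0.0868, 0.0913 and 0.0781). DUSP16 in Q311E against wild type passed neither with TPM nor with median scaling (0.0882 and 0.0534).

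**Figure D4:**
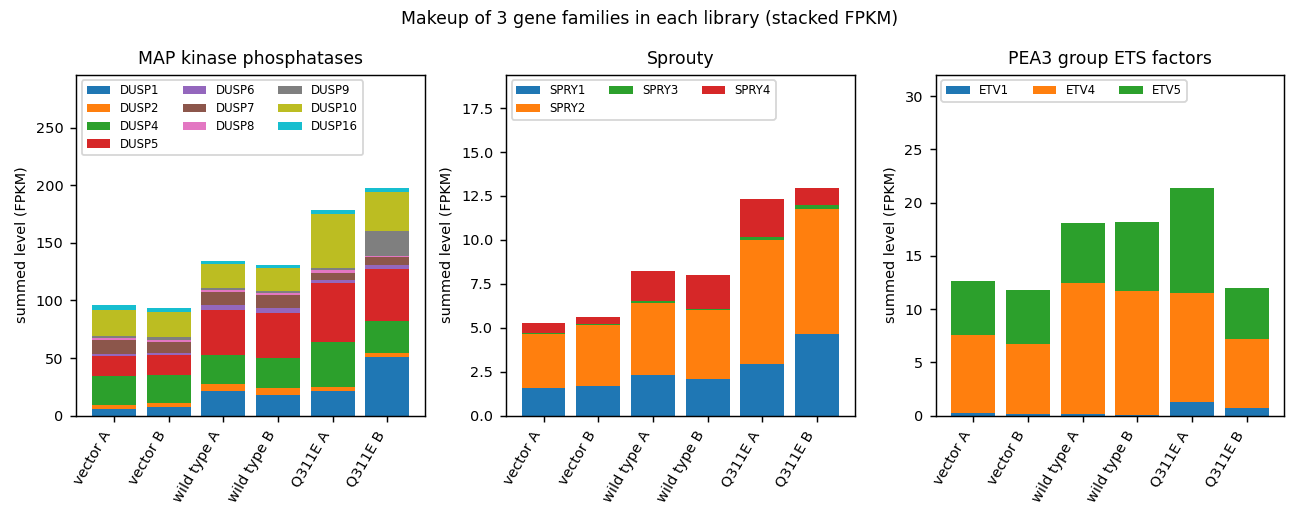
Stacked levels (FPKM, from 0) of the MAP kinase phosphatases, the Sprouty genes and the PEA3 group in each of the 6 libraries. The phosphatase sum is 93.2 and 95.7 in vector and 179 and 198 in Q311E, and the PEA3 sum of Q311E B (12.0) lies between those of vector (11.8 and 12.7).

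The genes above ERK were described from lists, which were chosen with earlier results of these data known. Among all tested genes, 3.54% were called higher and 8.76% lower in wild type against vector. The shares were 8.67% and 9.28% in Q311E against vector, and 17.5% and 10.1% in Q311E against wild type. Of 15 adaptor and Ras genes 14 were tested, and in wild type 0 rose and 1 fell, the adaptor SHC1 (-0.55 ± 0.09, limma adjusted p = 0.0208). In Q311E against vector 2 rose and 2 fell: DAB2IP, a Ras inactivator (1.13 ± 0.16, adjusted p = 0.0132), and SOS2, a Ras activator (0.65 ± 0.14, 0.0367), were higher, and HRAS (-0.50 ± 0.08, 0.0177) and SHC1 (-0.51 ± 0.09, 0.0190) were lower. Against wild type 2 rose and 0 fell in Q311E, DAB2IP (0.88 ± 0.16, limma adjusted p = 0.0183) and SOS2 (0.59 ± 0.14, 0.0373). Of 15 genes of the RAF, MEK and ERK chain 14 were tested. MAPK3, which encodes ERK1, was at 10.5 and 12.7 FPKM in vector, 5.75 and 6.02 in wild type, and 15.2 and 17.1 in Q311E. It fell in wild type (-0.87 ± 0.12, limma adjusted p = 0.0162), was higher in Q311E than in wild type (1.31 ± 0.12, 0.00427), and was the 1 call of its list in each of these comparisons. MAP2K1, which encodes MEK1, fell in Q311E against vector (-0.49 ± 0.08, limma adjusted p = 0.0177).

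The same shares of all tested genes stand beside the lists that follow. A further list held 14 other inhibitors, among them DUSP10, which acts on JNK and p38. It therefore does not stand for inhibitors of ERK alone. Of the 14, 12 were tested, with 1 rise and 1 fall in wild type. The list had 4 rises and 1 fall in Q311E against vector, and 4 rises and 2 falls in Q311E against wild type. DUSP10 was among the rises in both. The medians of the list were 0.08, 0.27 and 0.44, and the first was -0.00067 without vector B. Besides the paralogues above, ERRFI1, which inhibits the EGF receptor, rose in Q311E over vector (0.69 ± 0.08, limma adjusted p = 0.00797) and over wild type (0.46 ± 0.08, 0.0154), and DUSP3 was higher in Q311E than in wild type (0.43 ± 0.07, 0.0141). Of 12 other transcripts known to follow ERK 10 were tested, and the calls went in both directions. In wild type 1 rose and 2 fell: EGR1, an immediate early factor, rose (2.84 ± 0.41, adjusted p = 0.0184), and the AP-1 partner MAFF (-0.41 ± 0.07, 0.0261) and IER3, a survival gene (-0.72 ± 0.16, 0.0437), fell. In Q311E against vector EGR1 (2.61 ± 0.41, limma adjusted p = 0.0163) and the cytokine LIF (1.20 ± 0.21, 0.0217) rose and MYC fell (-0.41 ± 0.10, 0.0413). In Q311E against wild type MAFF was higher and MYC lower (0.56 ± 0.07 and -0.51 ± 0.10, limma adjusted p = 0.00858 and 0.0202). With 8, 6 and 4 of 10 values positive in the 3 comparisons, called or not, the list's medians were 0.37, 0.10 and -0.21. The second ranged from -0.02 when Q311E A was left out to 0.27 when Q311E B was, with 0.16 and 0.03 for vector A and B. The third was -0.03 without Q311E A and -0.11 without Q311E B. Over the 4 lists and PHLDA2, 33 calls were made, of which 0 changed sign in any alternative, 30 held with median scaling and 25 with TPM scaling. Median scaling lost IER3 in wild type (adjusted p = 0.0680) and SOS2 against wild type (0.0566), and TPM scaling lost MAP2K1 (0.0541), MAFF in wild type (0.0793) and MYC against vector (0.129). With 1 of the 6 libraries left out at a time, 29 of the calls were lost for 4 of the libraries and 4 for 2 of them.

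**Figure D5:**
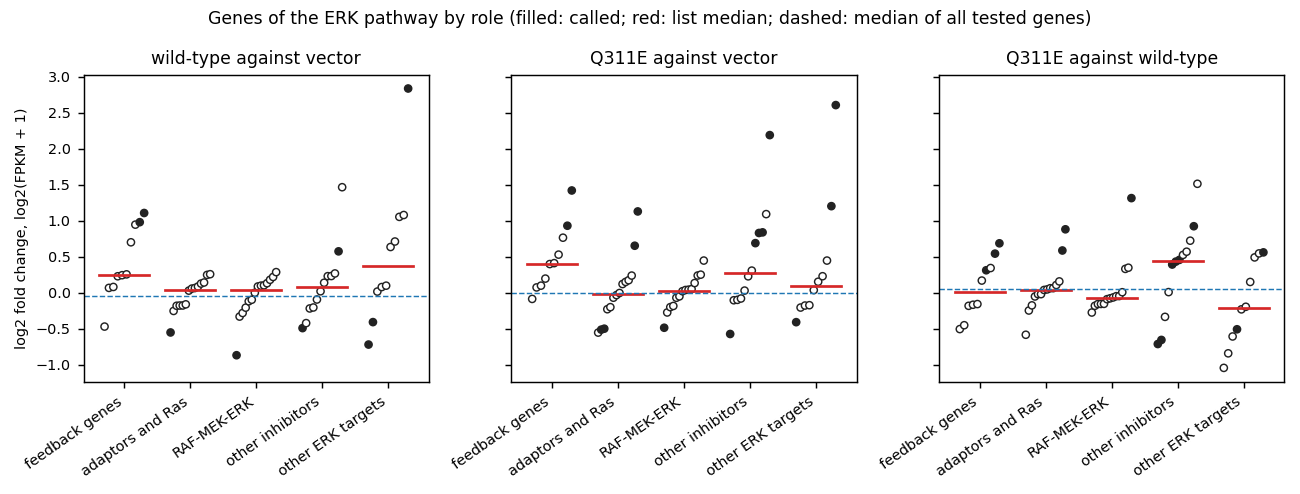
Log2 fold changes on the log2(FPKM + 1) scale of the tested genes of 5 lists in the 3 comparisons, with filled points for called genes, red lines at list medians and a dashed line at the median of all tested genes. The feedback genes' median is 0.25 in wild type and 0.41 in Q311E against vector (0.09 without Q311E A and 0.58 without Q311E B), and those of the adaptor and kinase lists lie between -0.07 and 0.04 (between -0.16 and 0.09 with 1 library left out).

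The members were set beside their neighbours on the chromosome. Positions are from GENCODE 29 on GRCh38. DUSP5 (ENSG00000138166) lies on chromosome 10 from 110497838 to 110511544, and the 30 nearest tested genes, 15 on each side, had medians of -0.08 in wild type and -0.04 in Q311E against vector. The DUSP5 values of 1.11 and 1.42 lay above those of all 30 neighbours, whose highest were 0.67 and 1.28. Among those neighbours 0 rose and 4 fell in wild type, and 3 rose and 1 fell in Q311E against vector. In Q311E against wild type 8 of the 30 rose and 1 fell, with a median of 0.12. Their highest value there (1.19) was above the 0.31 of DUSP5. DUSP6 (ENSG00000139318, chromosome 12, 89347232 to 89353271) had neighbours with a median of -0.09 in wild type, and 0 of 30 rose, with 0.60 as the highest beside its own 0.98. SPRY2 (ENSG00000136158, chromosome 13, 80335976 to 80340951) had neighbours with medians of 0.03 in Q311E against vector and 0.07 against wild type, and its value of 0.93 against vector exceeded their highest (0.70), while its 0.69 against wild type did not (1.14). PHLDA1 (ENSG00000139289, chromosome 12, 76025447 to 76033932) had a neighbour median of 0.06 in Q311E against wild type, where 3 of 30 rose and 2 fell and the highest (0.84) was above its own 0.54.

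Genes whose 6 values most resembled those of DUSP5 and DUSP6 were sought among all tested genes by the root mean square difference of their log2(FPKM + 1) values, each centred on its own mean. For DUSP5 the closest were LRRC3 (0.08), the RNA-binding NANOS1 (0.08), the protocadherin PCDHGB5 (0.14) and the secreted protease HTRA1 (0.15). HTRA1 was at 1.82 and 2.20 FPKM in vector, 5.53 and 6.19 in wild type, and 7.89 and 8.94 in Q311E. For DUSP6 they were the interleukin-13 receptor chain IL13RA1 (0.09), the metallothionein MT1E (0.10), the factor SP5 (0.12) and TRIB1 (0.13), a pseudokinase. PCDHGB5 shares exons with its gene cluster and MT1E has near-identical relatives, so their values are uncertain. LRRC3 was at 0 and 0.0663 FPKM in vector and at 1.38 to 1.78 in the MB21D2 lines. It passed the filter on low values only through those lines, so its likeness to DUSP5 rests on them. In vector, NANOS1 (1.08 and 1.00 FPKM), PCDHGB5 (1.08 and 0.849) and SP5 (0.885 and 1.01) were near the filter of 1 FPKM. IL13RA1 was at 11.8 and 11.9 FPKM in vector, 24.8 and 24.4 in wild type, and 16.7 and 17.9 in Q311E. Among the other 9 members, SPRY4 was closest to DUSP5 (0.32, rank 104 of all tested genes) and ETV4 closest to DUSP6 (0.31, rank 537). DUSP5 and DUSP6 differed from each other by 0.42.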

How the data were processed

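The 6 libraries (empty vector, wild-type MB21D2 and MB21D2 Q311E, 2 each) gave 1 table of FPKM values, which the authors deposited for 30178 human Ensembl gene IDs. Per the labels' protocols, total RNA came from a QIAGEN extraction and went into Illumina libraries. CASAVA is named in the submitters' processing notes, as are mouse genome builds, with no role for either. The aligner, the annotation and whether strand was used in counting are not given.

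Symbols were matched for 29993 IDs. Low FPKM values fell on steps, which gave whole reads (tolerance 0.001) for 30030 genes (99.51%), at the GENCODE 29 exon length for 22361 and at a fitted length for the rest, 8 of the 10 members among them. Tests used limma 3.58.1 in R 4.3.3 with a variance trend on log2(FPKM + 1), a minimum mean of 1 FPKM, all 3 groups in 1 fit and 3 residual degrees of freedom. Errors are SEs of that fit. The fit was also run on simulated data in which each gene had the same spread in all groups. The wider spread of the Q311E libraries was not part of that. Figures used matplotlib 3.10.9. For each comparison 16 alternatives were run: other pseudocounts, filters, scalings, variance models and sample sets, limma-voom on the recovered reads, and each library left out.

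The members were given by name. Of the wider lists, up to 4 called genes per list and comparison are named, all paralogues of the members' families, and the 4 genes most like DUSP5 and DUSP6. Members and lists were chosen with earlier results of these data known, and no p is adjusted over the members alone.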

Additional observations from a re-analysis of the deposited data

How the results depend on the processing

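Each of the 7 calls of members kept its direction in all alternatives. In wild type against vector, DUSP6 was lost without the filter (0.98). With only the 2 groups compared SPRY2 (0.24), SPRY4 (0.95), SPRED1 (0.26), ETV4 (0.70) and PHLDA1 (-0.47) were called, SPRY4 also with a pseudocount of 0.1 (1.78), median scaling (1.00) and voom (1.97), and PHLDA1 with the replicate block (-0.47). In Q311E against vector, DUSP6 was called with a pseudocount of 0.1 (0.72) and TPM scaling (0.69), and MB21D2 was lost with only 2 groups (1.65). In Q311E against wild type, DUSP5 was lost without the filter, with the replicate block, only 2 groups or no trend (0.31 in each), median scaling (0.19), TPM scaling (0.28) and voom (0.32). PHLDA1 was lost without the filter, with only 2 groups (0.54 in both) and with TPM scaling (0.53), and DUSP6 was called with median scaling (-0.55). Leaving out 1 library at a time gave log2 fold changes in wild type against vector of 1.09 to 1.12 for DUSP5, 0.92 to 1.04 for DUSP6, 0.18 to 0.30 for SPRY2, 0.85 to 1.04 for SPRY4, 0.18 to 0.34 for SPRED1, 0.63 to 0.77 for ETV4, -0.54 to -0.40 for PHLDA1 and 3.51 to 3.70 for MB21D2. Leaving out 1 library at a time gave log2 fold changes in Q311E against vector of 0.17 to 0.65 for DUSP4, 1.33 to 1.51 for DUSP5, 0.36 to 0.70 for DUSP6, 0.87 to 0.99 for SPRY2, 0.44 to 1.09 for SPRY4, -0.39 to 0.22 for SPRED2, -0.10 to 0.50 for ETV4, -0.04 to 0.84 for ETV5, -0.06 to 0.21 for PHLDA1 and 1.35 to 1.96 for MB21D2. Leaving out 1 library at a time gave log2 fold changes in Q311E against wild type of 0.10 to 0.59 for DUSP4, 0.22 to 0.40 for DUSP5, -0.62 to -0.28 for DUSP6, 0.66 to 0.71 for SPRY2, -0.51 to 0.15 for SPRY4, -0.47 to 0.14 for SPRED2, -0.80 to -0.20 for ETV4, -0.27 to 0.61 for ETV5, 0.41 to 0.68 for PHLDA1 and -2.26 to -1.65 for MB21D2. Without Q311E A the sign turned for ETV4 (-0.10), ETV5 (-0.043) and PHLDA1 (-0.064) against vector and for ETV5 (-0.27) against wild type. Without Q311E B it turned for SPRED2 (0.22) against vector and for SPRED2 (0.14) and SPRY4 (0.15) against wild type. None of these was called, with or without that library. A group left with 1 library was assumed to vary like the others.

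Counts of called genes were 393, 1210 and 1608 without the filter for wild type against vector, Q311E against vector and Q311E against wild type, and 5273, 262 and 973 with only the 2 groups compared. Without single libraries they ran from 7 to 5262, 3 to 5683 and 0 to 6961. More genes are tested without the filter; the cause of the other changes was not tested. The filter of 5 FPKM leaves out DUSP6, SPRY2, SPRY4 and SPRED1, so it gave them no value. The labels do not say what a shared letter stands for, and the letters were not taken to pair libraries, since not every pair's deviations went together. They correlated across genes by 0.387 between vector and Q311E, -0.03 between vector and wild type and -0.01 between wild type and Q311E. The replicate block gave 1299, 1942 and 3264 called genes, and limma-voom on the recovered reads 1474, 2082 and 3217. Depth limits SPRY4 most, with 50 reads in vector B.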
